A study of Mus musculus and Macaca mulatta with 39 samples.

Results

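H3K27ac regions that appeared or disappeared in mouse cortex between embryonic days E14.5 and E17.5 were identified from the region lists deposited for a chromatin immunoprecipitation and sequencing (ChIP-seq) study. The comparison set 4 E17.5 lists, from frontal cortex (replicates 1 and 2) and occipital cortex (replicates 1 and 2), against 2 E14.5 lists from cortex. Overlapping autosomal regions of these 6 lists were merged into 122940 loci. A locus was called gained when all 4 E17.5 lists and neither E14.5 list held it, and lost when both E14.5 lists and no E17.5 list held it. This rule gave 2934 gained loci (2.39% of all loci) and 848 lost loci (0.690%). A further 32737 loci were called in all 6 lists. The presence of H3K27ac at E17.5 and E14.5 is therefore a property of the rule, and the calls that fix the 2 classes are given as a description.

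All mice were of the C57BL6J strain, and cortex was taken from embryos of timed pregnancies. E17.5 cortex was dissected into frontal and occipital parts, whereas the labels name no area for E14.5 and E11.5 cortex, so that stage and dissection cannot be told apart. Each of the 4 tissues had 2 biological replicates per the series' design text, and the labels do not say how many embryos were pooled. H3K27ac was precipitated with Abcam ab4729. H3K4me2, precipitated with Millipore 07-030 from the same replicates, and H3K27ac at E11.5 were not used by the rule. The whole series holds 39 samples and 26 region lists of mouse and rhesus cortex, of which the 16 mouse lists were used here.

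H3K27ac, the acetylation of lysine 27 of histone H3, marks active promoters and enhancers. H3K4me2, the dimethylation of lysine 4, lies at promoters and enhancers that are active or poised, and at many enhancers it precedes acetylation. Between these stages the mouse cortex adds mainly upper-layer neurons, neurons born earlier migrate and mature, and the production of glia begins. Cortex at these stages is a mixture of progenitors, neurons and non-neuronal cells. In such bulk tissue a region that appears in more cells and one that becomes stronger in the same cells cannot be told apart. The lists give positions on the mm9 build, and no mm9 gene annotation was used here, so loci are named by position and not by gene, and the labelled tissue was not checked against cell type markers.

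The lists gave no read numbers, and depth is therefore unknown. The 4 E17.5 lists held 71248 to 86342 autosomal regions, against 58156 and 63318 in the E14.5 lists. They covered 152 ± 17.9 Mb at E17.5 (SD, n = 4), against 122 ± 25.5 Mb at E14.5 (SD, n = 2). Covered length overlapped between the stages, with 125.9 Mb in E17.5 occipital replicate 2 and 140.1 Mb in E14.5 replicate 1 (exact two-sided permutation test, p = 0.267). With 15 splits this test cannot reach a p below 0.05, so it cannot decide whether the lengths differ. The E17.5 lists each held more regions than either E14.5 list, which gives an exact two-sided permutation p of 0.0667, the smallest that the 15 splits of 4 against 2 allow. When every list was reduced to its 58156 widest regions, there were 1545 gained and 1577 lost loci. The excess of gained over lost loci was thus absent when the lists were of equal number. The E11.5 H3K27ac lists were shorter, at 82.4 and 61.1 Mb.

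Gained loci were wider than loci at large. Their median width was 2125 bp (quartiles 1476 and 3125 bp), against 1200 bp over all loci. Of gained loci 119 were under 1 kb, against 53570 of all 122940 loci, and 184 were over 5 kb. Lost loci were narrower, with a median of 1025 bp (quartiles 850 and 1475 bp), and 0 were over 5 kb. Loci called in all 6 lists had a median width of 3225 bp. Merged width grew with the number of lists. Without an E14.5 list, medians were 625, 975, 1474 and 2125 bp for loci in 1, 2, 3 and 4 E17.5 lists. The rule sets these numbers, so the order of widths is a description. Loci in all 4 E17.5 lists, of any E14.5 state, had a median of 2999 bp, above that of gained loci. Within gained loci the covered length had a median of 1100 and 1300 bp in frontal replicates 1 and 2, and of 1300 and 925 bp in occipital replicates 1 and 2. Occipital replicate 2 held the shortest of the 4 regions at 1228 gained loci (41.9%), against 48.6% of loci called in all 6 lists. Lost loci had a median covered length of 850 bp in E14.5 replicate 1 and 700 bp in replicate 2.

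The longest gained loci were domains of several kilobases at E17.5 in which neither E14.5 list held any region. The widest of the 10 lay at chr13:57262202-57276350, where frontal replicates covered 9500 and 12750 bp, occipital replicates covered 9650 and 1350 bp, and both E14.5 lists covered 0 bp. At chr3:117839176-117850650 frontal replicates covered 6650 and 11475 bp, occipital replicates covered 8725 and 2475 bp, and both E14.5 lists covered 0 bp. Occipital replicate 2 was the lowest of the 4 E17.5 lists at both loci. The 4 E17.5 lists were closer to each other at chr9:103744226-103752750, with 8200 and 8525 bp in frontal cortex and 7375 and 4700 bp in occipital cortex, a mean of 7200 ± 1736 bp (SD, n = 4), against 0 bp in both E14.5 lists. At chr13:59457277-59467051 they covered 6575 and 8000 bp in frontal cortex and 5725 and 7775 bp in occipital cortex, against 0 bp in both E14.5 lists. This last locus was the only one of the 10 with a region at E11.5, of 775 bp in replicate 1 and 0 bp in replicate 2.

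The longest lost loci were shorter, and more of them had been called at E11.5. At chr8:117963276-117967625 all 4 E17.5 lists covered 0 bp, against 4200 and 3900 bp in the E14.5 lists. At E11.5 this locus had 525 bp in replicate 1 and none in replicate 2. At chr6:146927851-146931225 all 4 E17.5 lists covered 0 bp, against 3250 and 3175 bp at E14.5, and the E11.5 lists covered 3375 and 1050 bp. At chr7:103588851-103591650 all 4 E17.5 lists covered 0 bp, against 2600 and 2525 bp at E14.5, and both E11.5 lists covered 0 bp. Among the 10 longest lost loci, the E14.5 replicates were most unequal at chr1:73637601-73642000, with 4400 and 625 bp.

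**Figure D1:**
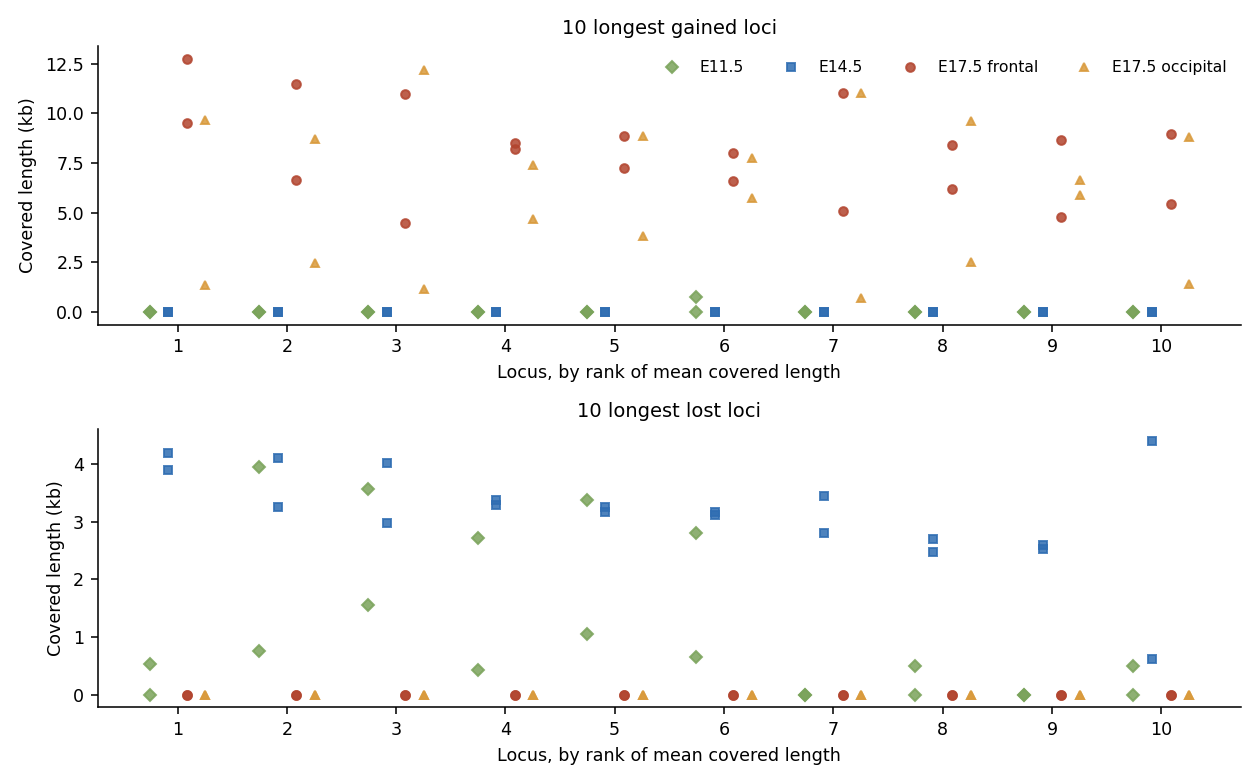
Covered length of H3K27ac in kb (vertical axes) at the 10 longest gained loci (top) and the 10 longest lost loci (bottom), ordered by mean covered length at E17.5 and at E14.5, with 1 point for each of the 8 H3K27ac lists. In the top panel the 4 E17.5 points spread from 700 to 12750 bp, and a point of E11.5 stands above 0 only at the locus of rank 6; in the bottom panel E11.5 points stand above 0 at 8 of the 10 loci.

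At the edge of the rule, the gained locus shortest at E17.5, chr4:13331651-13332326, had 550, 550, 500 and 550 bp in the 4 E17.5 lists and 0 bp in both E14.5 lists. One of the shortest lost loci, chr1:42584451-42585275, had 0 bp in all 4 E17.5 lists and 500 bp in each E14.5 list, which is near the smallest region that the lists hold. Just outside the gained class stood 5400 loci called in all 4 E17.5 lists and 1 E14.5 list, and 5551 loci called in 3 E17.5 lists and no E14.5 list. An example of the first is chr9:47724626-47740175, with 13750 and 13625 bp in frontal cortex and 12200 and 9150 bp in occipital cortex, against 4375 and 0 bp at E14.5. Of the second, chr1:56294551-56315000 had 7550 and 20275 bp in frontal cortex and 19500 and 0 bp in occipital cortex, against 0 bp in both E14.5 lists. Just outside the lost class stood 1311 loci called in both E14.5 lists and 1 E17.5 list. Among these, chr5:135755776-135763000 had 675 bp in occipital replicate 2 and 0 bp in the other E17.5 lists, against 6100 and 4775 bp at E14.5. Membership in a class thus turned on a single list at many loci.

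Part of the gained loci lay in groups. The 2 classes differ in size, so their grouping is a description. When gained loci no more than 50 kb apart were joined, 363 groups held 2 or more of them and 2060 loci (70.2%) stood alone. The same joining of lost loci gave 49 groups, and 744 loci (87.7%) stood alone. A group of 8 gained loci spanned chr9:112921526-113041925, where the gained loci together covered 22525 and 28025 bp in frontal cortex and 29000 and 13225 bp in occipital cortex, against 0 bp in both E14.5 lists and 0 bp in both E11.5 lists. Another group of 8 spanned chr13:59429251-59592426. Its gained loci covered 22050 and 20200 bp in frontal cortex and 23225 and 23550 bp in occipital cortex, against 0 bp in both E14.5 lists. At E11.5 they covered 775 and 0 bp. A group of 7 spanned chr9:47806576-47935801, with 11050 and 12525 bp in frontal cortex and 8850 and 9100 bp in occipital cortex, against 0 bp in both E14.5 lists. The largest group of lost loci held 4 and spanned chr6:88329201-88374075. Its lost loci covered 0 bp in all 4 E17.5 lists, against 2325 and 3450 bp at E14.5, and 1100 and 1625 bp at E11.5. That span held 9 loci in all, 1 of them called in all 6 lists. The values of 0 bp that the rule fixed thus hold for the members and not for whole spans.

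Distances to acetylation already present at E14.5 were similar for gained loci and for loci just outside the rule. Of gained loci, 1622 (55.3%) lay under 10 kb from an E14.5 region, against 54.9% of loci called in 3 E17.5 lists and no E14.5 list. The median distance from a gained locus to the nearest E14.5 H3K27ac region of either list was 8487 bp (quartiles 3556 and 20625 bp), and 111 gained loci (3.78%) lay over 100 kb away. The corresponding median was 8475 bp for loci called in 3 E17.5 lists and no E14.5 list, and 6699 bp for loci called in 1. Gained loci thus lay no nearer to E14.5 regions than these sets. From a lost locus to the nearest E17.5 region the median distance was 3487 bp, against 2850 bp for loci called in 1 E14.5 list and no E17.5 list. Across chromosomes, gained loci made up 1.95% of loci on chromosome 2 to 3.15% on chromosome 9, and lost loci made up 0.436% on chromosome 15 to 1.01% on chromosome 10.

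The state of each class at E11.5 was then examined, a stage that the rule did not use. A smaller share of gained than of lost loci had a region at E11.5. E11.5 replicates 1 and 2 held 10.7% and 8.79% of gained loci. They held 37.0% and 24.4% of lost loci, and 32.5% and 28.1% of all loci. In both E11.5 lists together, 2443 gained loci (83.3%) were called in neither, 410 (14%) in 1 and 81 (2.76%) in both. Of lost loci, 471 (55.5%) were called in neither, 233 (27.5%) in 1 and 144 (17%) in both. Over all loci, 37.5% were called in at least 1 E11.5 list and 23.0% in both, against 16.7% and 2.76% of gained loci and 44.5% and 17% of lost loci. Loci called in all 6 lists had a region in both E11.5 lists at 69.8%. The rule fixes presence at E14.5, and the E11.5 share moved with that presence. Of loci in no E14.5 list, 9.98% were called in at least 1 E11.5 list, below the 16.7% of gained loci. Of loci in both E14.5 lists, 80.1% were, above the 44.5% of lost loci. The order of the 2 classes at E11.5 is therefore not separate from their state at E14.5.

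The share called at E11.5 moved with the width of a locus and with the number of lists in which it was called. Among gained loci, 9.24% of those under 1 kb and 19.6% of those of 3 kb or more were called in at least 1 E11.5 list. The same shares over all loci were 11.7% and 73.8%. Among lost loci they were 33.1% for 393 loci under 1 kb and 75% for 24 loci of 3 kb or more. In each of 3 width classes from 1 kb up, gained loci were called at E11.5 less often than all loci of that width. Lost loci stood above all loci of their width under 1 kb (33.1% against 11.7%) and from 1 to 2 kb (55.2% against 40.9%), below them from 2 to 3 kb (45.7% against 61.9%), and near them at 3 kb or more (75% against 73.8%). Loci called in 3 E17.5 lists and no E14.5 list had an E11.5 region at 12.3%, and loci called in 1 E17.5 list and no E14.5 list at 8.65%, so that the share of gained loci (16.7%) was the highest of these 3 sets. Loci called in both E14.5 lists and 1 E17.5 list had one at 52.6%, and loci called in 1 E14.5 list and no E17.5 list at 18.6%. These shares come from 2 E11.5 lists, and no test over samples applies to them. They also rested on the E14.5 lists: with E14.5 replicate 2 as the only E14.5 list, 31.0% of gained and 19% of lost loci were called at E11.5, and the order of the classes turned. With E14.5 replicate 1 as the only one, the shares were 20.7% of gained and 27.8% of lost loci.

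**Figure D2:**
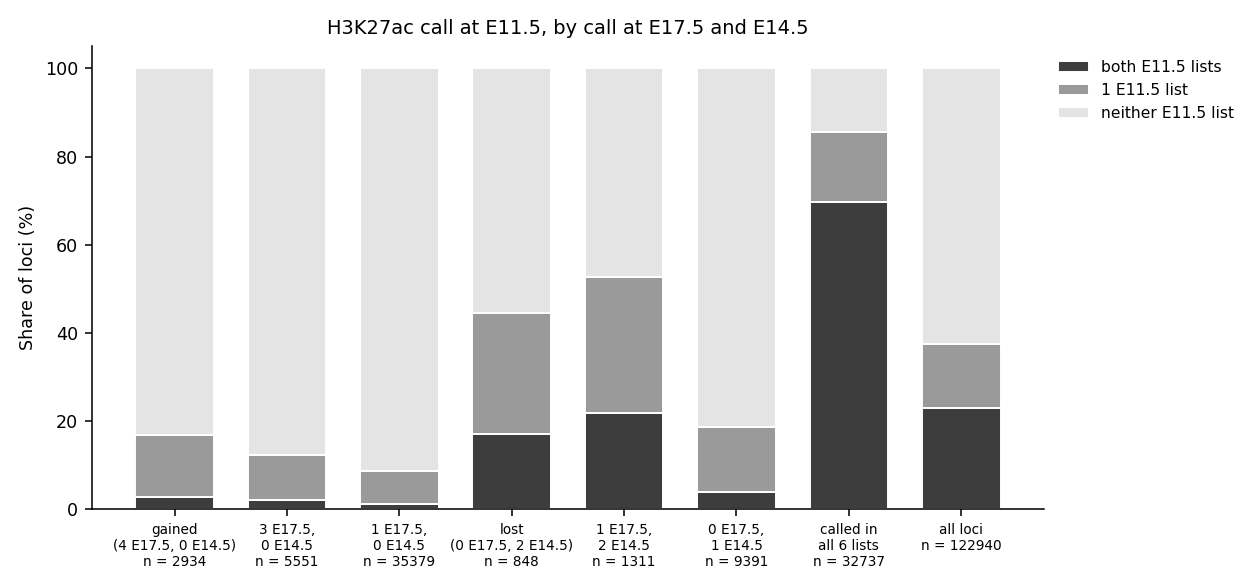
Share of loci (vertical axis, %) called in both, 1 or neither E11.5 H3K27ac list, by the number of E17.5 and E14.5 H3K27ac lists that called the locus; n is the number of loci. The dark part is 2.76% of gained loci, 17% of lost loci and 69.8% of loci called in all 6 lists.

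A set of 81 gained loci was acetylated in both lists of E11.5, not called at E14.5 and called again in every list of E17.5. Their mean E11.5 region had a median of 812.5 bp. The longest at E11.5, chr4:150197926-150199950, had 2025 bp in both E11.5 lists, 0 bp in both E14.5 lists, 775 and 575 bp in frontal cortex and 1150 and 1850 bp in occipital cortex. Its H3K4me2 covered 925 and 2025 bp at E11.5 and 0 bp in both E14.5 lists and all 4 E17.5 lists. At chr1:164761576-164763375 H3K27ac covered 1800 and 1700 bp at E11.5, 0 bp in both E14.5 lists, 800 and 1675 bp in frontal cortex and 1700 and 1300 bp in occipital cortex. H3K4me2 at this locus was called in all 8 lists, with 1550 and 1800 bp at E11.5, 975 and 1375 bp at E14.5, 1500 and 1525 bp in frontal cortex and 1500 and 1750 bp in occipital cortex. The 2 loci therefore shared an H3K27ac pattern and differed in H3K4me2.

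A set of 144 lost loci was acetylated in both lists of E11.5 and of E14.5, and in no list of E17.5. Their mean E11.5 region had a median of 918.75 bp. The longest, chr14:32757551-32762000, had 3575 and 1550 bp at E11.5, 4025 and 2975 bp at E14.5 and 0 bp in all 4 E17.5 lists. At chr3:144258651-144263375 H3K27ac covered 3950 and 750 bp at E11.5, 4100 and 3250 bp at E14.5 and 0 bp in all 4 E17.5 lists. The E11.5 replicates differed more at these 2 loci than the E14.5 replicates did. At chr19:44567326-44569650 H3K27ac covered 2325 bp in both E11.5 lists, 1375 and 2025 bp at E14.5 and 0 bp in all 4 E17.5 lists.

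H3K4me2, the second mark, was measured in precipitations that the rule did not use, although they shared the chromatin and input of a replicate with H3K27ac. At gained loci H3K4me2 was called more often in every E17.5 list than in either list of an earlier stage. It was called at 4.64% and 14.1% of gained loci at E11.5, at 4.81% and 11.6% at E14.5, at 35% and 26.0% in E17.5 frontal cortex and at 38.8% and 66.5% in E17.5 occipital cortex. Over all loci the shares were 23.6% and 33.3% at E11.5, 23.4% and 31.6% at E14.5, 34.7% and 30.5% in frontal cortex and 37.1% and 49.4% in occipital cortex. Occipital replicate 2 was the highest H3K4me2 list in each set, and with 157.6 Mb it was also the longest of the 8 H3K4me2 lists, the others covering 63.5 to 109.4 Mb. The part of list length in these shares was not tested.

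At lost loci H3K4me2 shares overlapped between stages. H3K4me2 was called at 15.8% and 32.2% of lost loci at E11.5, at 10.0% and 28.8% at E14.5, at 13.4% and 8.61% in frontal cortex and at a mean of 23.2 ± 8.06% in occipital cortex (SD, n = 2). Of the 848 lost loci, 425 (50.1%) had H3K4me2 in none of the 8 lists, against 44.7% of all loci. The corresponding number for gained loci was 819 (27.9%). These gained loci carried H3K27ac in every list of the later stage without an H3K4me2 region at any stage.

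**Figure D3:**
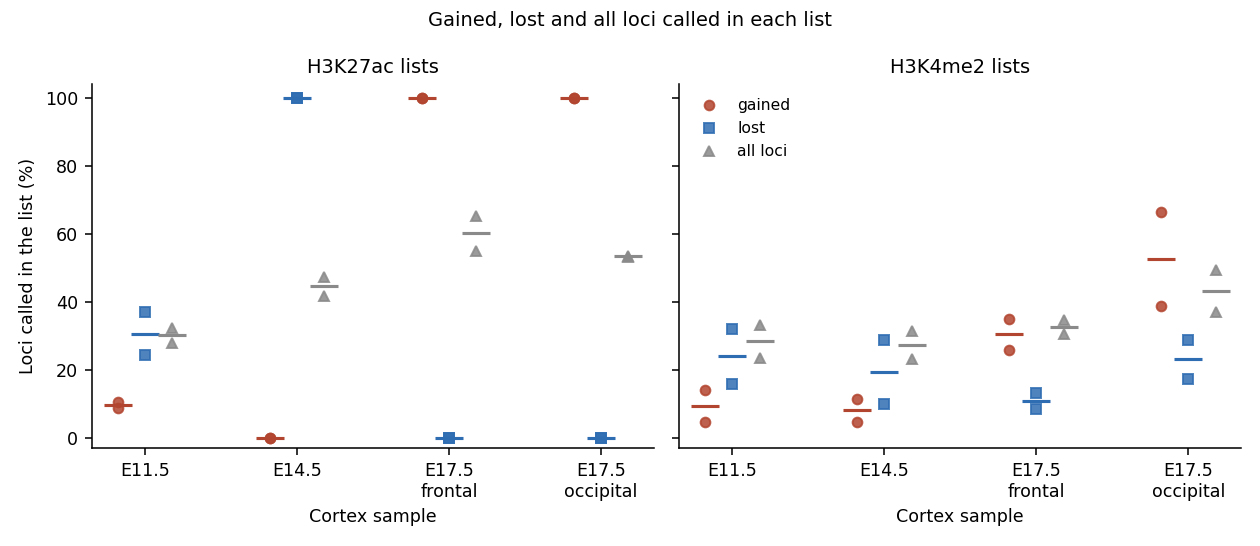
Share of gained, lost and all loci (vertical axis, %) called in each H3K27ac list (left) and H3K4me2 list (right), by cortex sample; each point is 1 list, horizontal dashes are means of 2 lists. The H3K27ac points at 0 and 100% at E14.5 and E17.5 follow from the rule; in the right panel all 4 E17.5 points of gained loci, from 26.0 to 66.5%, lie above the E11.5 and E14.5 points, from 4.64 to 14.1%.

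A change of H3K4me2 that matched the rule's own pattern was found at a minority of both classes. H3K4me2 was in all 4 E17.5 lists and neither E14.5 list at 284 gained loci (9.68%), against 2.07% of all loci. It was in both E14.5 lists and no E17.5 list at 6 lost loci (0.708%), against 0.0618% of all loci. All 6 of these lost loci had H3K27ac in both E11.5 lists. H3K4me2 was in both E14.5 lists, where H3K27ac was not called, at 117 gained loci (3.99%), against 22.6% of all loci. Not all of these loci were without earlier acetylation: 79 had H3K27ac in neither E11.5 list, 29 in 1 and 9 in both. Of these 117, 110 (94.0%) had it in all 4 E17.5 lists. Of the 74 lost loci with H3K4me2 in both E14.5 lists, 44 (59.5%) still had it in every E17.5 list, although H3K27ac was no longer called. Over all loci the corresponding share was 94.0%. It was 63.0% for loci with H3K27ac in both E14.5 lists and 1 E17.5 list, and 66.4% for loci with H3K27ac in 1 E14.5 list and no E17.5 list. The lower share was thus not particular to lost loci.

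The number of E17.5 lists with H3K4me2 followed the number with H3K27ac. H3K4me2 was in all 4 E17.5 lists at 559 gained loci (19.1%), at 8.88% of loci with H3K27ac in 3 E17.5 lists and no E14.5 list, and at 2.18% of loci with H3K27ac in 1, against 27.4% of all loci. It was in no E17.5 list at 871 gained loci (29.7%), 49.7% and 82.9% in the same order, against 48.3% of all loci. Gained loci thus had H3K4me2 in every E17.5 list less often than loci at large, and had none less often too. These sets differ in width, with medians of 1474 and 625 bp for the 3-list and 1-list sets. Under 1 kb, 15.1% of gained and 3.53% of all loci had H3K4me2 in every E17.5 list. The shares were 19.9% and 27.9% from 1 to 2 kb, 17.4% and 50.8% from 2 to 3 kb, and 20.0% and 63.4% at 3 kb or more. Among lost loci H3K4me2 was called in every E17.5 list at 59 (6.96%), and at 573 (67.6%) no E17.5 list called it. Loci called in all 6 H3K27ac lists had H3K4me2 in all 4 E17.5 lists at 77.4%, so that gained loci had H3K4me2 less often than loci with constant H3K27ac.

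**Figure D4:**
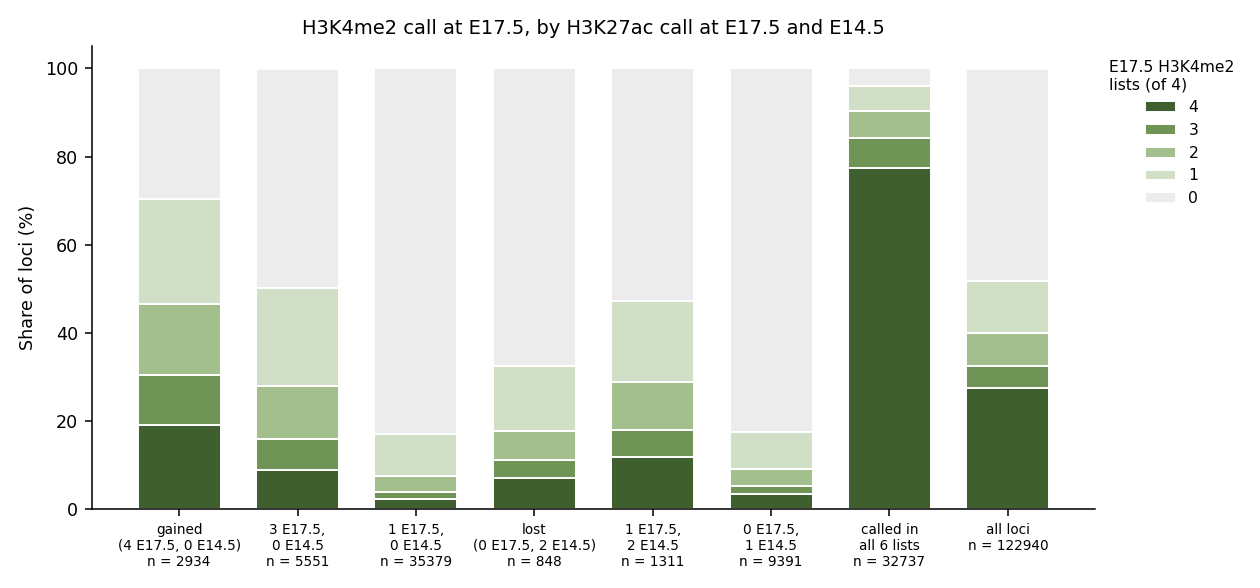
Share of loci (vertical axis, %) with H3K4me2 in 4, 3, 2, 1 or 0 of the E17.5 H3K4me2 lists, by the number of E17.5 and E14.5 H3K27ac lists that called the locus; n is the number of loci. The darkest part is 19.1% of gained loci, 6.96% of lost loci and 77.4% of loci called in all 6 H3K27ac lists.

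H3K4me2 was also compared between E17.5 and E14.5 as covered length, log2(covered bp + 200), with limma over the loci that had H3K4me2 in at least 2 of 8 lists. H3K4me2 rose at 487 and fell at 0 of the 2934 gained loci, at a Benjamini-Hochberg adjusted p below 0.05, and 0 were lower at an unadjusted p below 0.05. Of gained loci 1432 passed the filter and could be called. Of these, 1071 had no H3K4me2 at E14.5 and passed only through lists of other stages, so that the absence of falls was largely fixed by the filter, and only 361 had an E14.5 region that could shrink. Over all loci tested 5895 of 54001 rose (10.9%) and 147 fell (0.272%). Counted over all members, 16.6% of gained loci rose, against 4.80% of all 122940 loci. The 1071 gained loci without H3K4me2 at E14.5 could only rise or stay level. How many of the 487 rises lay among them was not counted, and nothing is concluded from the difference in shares. At lost loci, of which 294 passed the filter, H3K4me2 rose at 14 and fell at 8, which is 1.65% and 0.943% of lost loci, against 4.80% and 0.12% of all loci. Of these 294 lost loci, 60 had no H3K4me2 at E14.5 and could only rise or stay level, and 234 had an E14.5 region. How many of the 14 rises lay among the 60 was not counted, and nothing is concluded from the order. Many loci were covered wholly or not at all in every list of a tissue, 4040 of the 54001 without any spread between replicates, which makes small p-values easy to reach. When values were shuffled over the lists, limma called too many loci, so these counts are likely too high. With a lower limit set on the variance, chosen after the data were seen, 226 gained loci rose and 0 fell, against 3% and 0.050% of all loci tested, and 1 lost locus rose and 3 fell. Leaving out 1 list at a time gave 306 (without occipital replicate 2) to 548 gained loci that rose and 0 to 4 that fell. For lost loci it gave 5 to 29 that rose and 8 to 30 that fell. The order at lost loci turned in 4 of these fits, with 7 up and 30 down without E14.5 replicate 1, 10 and 14 without frontal replicate 1, 6 and 8 without occipital replicate 1, and 5 and 9 without occipital replicate 2.

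The gained loci with the largest rise in H3K4me2 had both marks in all 4 E17.5 lists and neither mark at E14.5. At chr17:3392901-3399050 H3K4me2 covered 4350 and 4250 bp in frontal cortex and 3425 and 4900 bp in occipital cortex, against 0 bp in both E14.5 lists, a log2 change of 4.46 ± 0.15 (SE; limma, adjusted p = 0.000402). H3K27ac covered 3150, 4800, 6150 and 1950 bp there in the same 4 samples. At chr9:40257051-40260825 H3K4me2 covered 3750 and 3775 bp in frontal cortex and 3775 bp in both occipital lists, against 0 bp in both E14.5 lists, a log2 change of 4.31 ± 0.06 (SE; limma, adjusted p = 0.000402). The E17.5 lists cover nearly the whole merged locus here, which bounds their values. The next loci by size of change were chr8:79710276-79714025 (log2 change 3.95), chr2:65689626-65692576 (3.93) and chr16:76684476-76688400 (3.75). H3K4me2 was called in neither E11.5 list and neither E14.5 list at any of these 5 loci, which passed the filter through their E17.5 lists alone and were picked for the size of the rise.

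Among lost loci the largest fall in H3K4me2 was at chr19:44567326-44569650, where H3K4me2 covered 0 bp in all 4 E17.5 lists, against 2024 and 2000 bp at E14.5, a log2 change of -3.47 ± 0.10 (SE; limma, adjusted p = 0.000402). At E11.5 H3K4me2 covered 2325 bp in both lists. This locus therefore carried both marks in all 4 lists of the earlier stages and neither mark at E17.5. At chr17:23819901-23821925 H3K4me2 covered 0 bp in all 4 E17.5 lists, against 1175 and 1800 bp at E14.5, with 1825 and 2025 bp at E11.5 (log2 change -3.05 ± 0.19, SE; limma, adjusted p = 0.000884). At chr12:54220251-54221075 the E17.5 lists covered 0 bp, against 801 and 825 bp at E14.5, with 650 and 825 bp at E11.5 (log2 change -2.34). The falls at chr4:65137876-65138875 (-2.18) and chr3:69209851-69212450 (-1.95) had adjusted p of 0.0526 and 0.0741 by limma with the lower limit on the variance. The opposite pattern stood at chr2:157883126-157885825, a lost locus where H3K27ac covered 0 bp in all 4 E17.5 lists, against 2700 and 2175 bp at E14.5. There H3K4me2 covered 875 and 725 bp in frontal cortex and 2325 and 2550 bp in occipital cortex, against 0 bp in both E14.5 lists (log2 change 3.02 ± 0.14, SE; limma, adjusted p = 0.000422). With 0 bp in both E11.5 lists too, this locus passed the filter through its E17.5 lists alone. It was picked as the largest rise among lost loci.

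**Figure D5:**
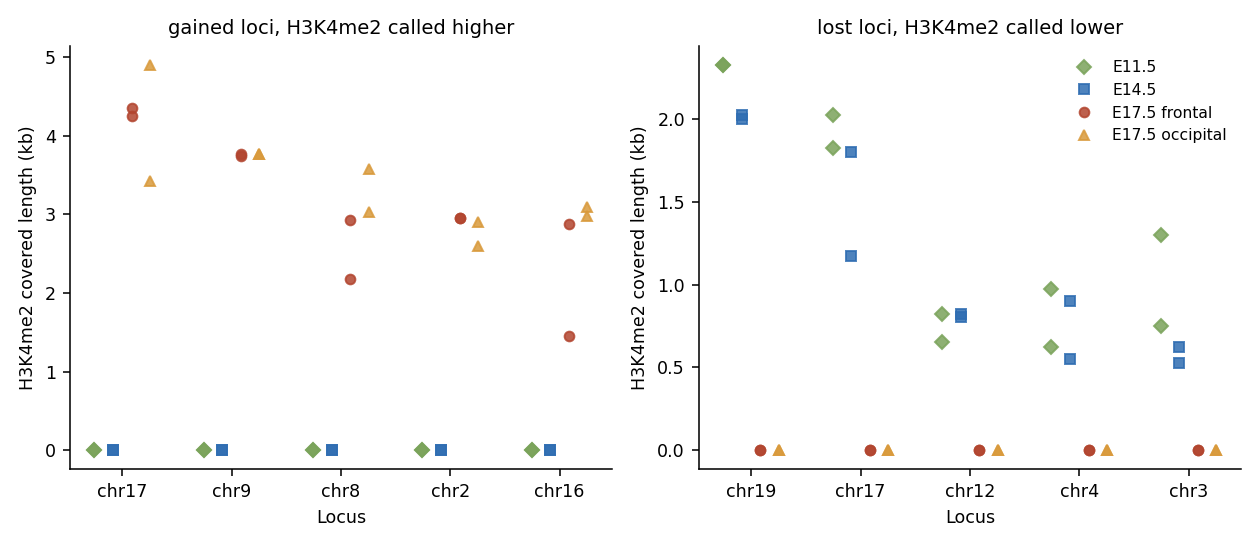
Covered length of H3K4me2 in kb (vertical axes) in each of the 8 H3K4me2 lists at the 5 gained loci with the largest rise (left) and the 5 lost loci with the largest fall (right) between E14.5 and E17.5, named by chromosome. On the left all E11.5 and E14.5 points are at 0; on the right all E17.5 points are at 0, and the E11.5 and E14.5 points run from 525 to 2325 bp.

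H3K4me2 at the same loci was compared between E14.5 and E11.5, the stages before E17.5. Of gained loci, 491 (16.7%) already had H3K27ac in at least 1 E11.5 list. H3K4me2 rose at 19 and fell at 9 gained loci, 0.648% and 0.307% of them (limma, adjusted p below 0.05). It rose at 6 and fell at 15 lost loci, 0.708% and 1.77% of them. The shares were 0.981% and 0.552% of all 122940 loci, and 2.23% and 1.26% of the 54001 loci tested. Neither order held when 1 list was left out. Gained loci that rose and fell numbered 74 and 9 without E14.5 replicate 1, 19 and 34 without E14.5 replicate 2, 11 and 23 without E11.5 replicate 1 and 40 and 6 without E11.5 replicate 2. Lost loci numbered 19 and 13, 6 and 36, 4 and 2, and 6 and 2 in the same fits. With the lower limit on the variance, limma called 0 loci in either direction, and 20 gained loci were higher and 16 lower at an unadjusted p below 0.05. At 2571 gained loci (87.6%) H3K4me2 was in neither E14.5 list, so that a rise between E11.5 and E14.5 could not be called there. Only 361 of the 1432 gained loci tested had an E14.5 region that could show a rise. The test therefore cannot decide whether H3K4me2 rose ahead of H3K27ac.

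The same test of H3K27ac between E17.5 and E14.5 uses the contrast of the rule and is given as a description. It called 0 of 82979 loci with limma, the smallest adjusted p being 0.0506, while 10917 loci were higher and 2629 lower at an unadjusted p below 0.05, among them 2932 gained and 847 lost loci. With the lower limit on the variance limma also called 0. Without occipital replicate 2, 4656 loci were called higher, 2137 of them gained, and 869 lower, 520 of them lost. The comparison of H3K27ac between E17.5 frontal and occipital cortex is likewise a description at gained loci, since the rule required a region in both areas. Limma called 0 loci with and without the lower limit. Of gained loci, 34 were higher and 10 lower in frontal cortex at an unadjusted p below 0.05, among 3042 and 1382 loci in all. The rule applied to 1 area alone gave 8367 gained and 1643 lost loci for frontal cortex, and 5865 gained and 1954 lost loci for occipital cortex, both against the same E14.5 lists. H3K4me2 at E17.5 was lower in frontal than in occipital cortex at 262 gained loci and higher at 20 (limma, adjusted p below 0.05). These were 18.3% and 1.4% of the 1432 gained loci tested, against 7.28% and 0.581% of all loci tested. Without occipital replicate 1, 8 gained loci were lower and 16 higher in frontal cortex, and without occipital replicate 2, 0 were lower and 58 higher, so that the direction turned. Limma with the lower limit on the variance called 0.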

How the data were processed

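Per the labels' protocols, mouse cortex was crosslinked with formaldehyde and sonicated before precipitation. The authors deposited 1 list of called regions per ChIP sample, with chromosome, start and end and no score. The submitters' processing notes name Bowtie 0.12.9, with hg19 and mm9 as builds. The region caller and its threshold were not given in the sources used here. In all lists neighbouring regions lay at least 1025 bp apart. Input samples were not analysed here.

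Touching or overlapping autosomal regions of the 6 lists were merged, and a locus counted as called in a list with at least 1 bp of overlap. Positions are 1-based. For limma 3.58.1 in R 4.3.3, each value was log2(covered bp + 200), with a mean per tissue and E17.5 as the mean of its 2 areas, at an adjusted p below 0.05. The scale understates changes of short loci. The code was tested on simulated data. With the values of each locus shuffled over the lists, limma without the lower limit on the variance called too many loci. List lengths were compared by exact permutation (Python 3.11.15, numpy 2.4.6, pandas 2.3.3; plots by matplotlib 3.10.9). Named loci are the longest of a class at a stage, those at the edge of the rule, and those with the largest called H3K4me2 change. Members and lists were chosen with earlier results of these data known. Gene lists, cell type markers and a promoter split were planned but not run, since positions are on mm9. Alternatives were other overlap, merging, width, pseudocount, scaling, filter and replicate settings.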

Additional observations from a re-analysis of the deposited data

Results flagged for a closer look

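H3K4me2 differed between areas at E17.5 at some members, in a test of frontal against occipital cortex over 54001 loci with limma. Of gained loci, 262 had less H3K4me2 in frontal than in occipital cortex and 20 had more. These were 18.3% and 1.4% of the 1432 gained loci tested, against 7.28% and 0.581% of all loci tested. Of lost loci, 18 had less in frontal cortex, 6.12% of the 294 tested, which is no more than over all loci, and 0 had more. These calls rest on the occipital lists. Without occipital replicate 1, 8 gained loci had less H3K4me2 in frontal cortex and 16 had more. Without occipital replicate 2, 0 had less and 58 had more, so that the direction turned. With the lower limit on the variance 0 were called in either direction, and 341 were lower at an unadjusted p below 0.05. Without either frontal replicate, 0 gained loci were called higher in frontal cortex. Occipital replicate 2 was the longest H3K4me2 list, and its part in the difference was not tested.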

How the results depend on the processing

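The numbers of gained and lost loci depend on how strictly a list must hold a locus. Lost loci numbered 1412 when a list had to cover at least 50% of a locus, and then 39.5% of gained and 61.0% of lost loci were called at E11.5. The overlap, number and width settings applied to the E17.5 and E14.5 lists only. At E11.5 all regions were kept, and 1 bp of overlap sufficed for a call. With the same number of widest regions per list there were 1545 gained and 1577 lost loci, 18.9% of the gained ones called at E11.5. With regions of at least 1000 bp there were 1681 gained loci, and 32.1% of gained and 71.0% of lost loci were called at E11.5. The frontal lists alone gave 8367 gained loci, 12.3% of them called at E11.5, and 1643 lost loci. The occipital lists alone gave 5865 gained loci, 14.7% of them called at E11.5, and 1954 lost loci. Fewer lists on a side are easier to satisfy by construction. Leaving out 1 list at a time gave 3769 to 7433 gained loci, 1066 to 6420 lost loci, and 8.79 to 31.0% of gained and 19.0 to 48.7% of lost loci called at E11.5. The highest counts of both classes and the turned order at E11.5 came without E14.5 replicate 1. The cause was not tested. Merging regions up to 1000 bp apart kept both counts within 1.5 times.

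For covered H3K4me2 between E17.5 and E14.5, 1649 loci were called with the lower limit on the variance, an alternative chosen after seeing the data, in place of 6042, and 3088 to 10736 when 1 list was left out. Between frontal and occipital cortex the lower limit gave 0 calls in place of 4247, and leaving out 1 list gave 681 to 5180. Between E14.5 and E11.5 it gave 0 in place of 1885, a pseudocount of 1000 bp gave 1130, and leaving out 1 list gave 1390 to 4016. For H3K27ac between E17.5 and E14.5, 19 loci were called with a pseudocount of 1000 bp, 170 when a region in at least 1 list sufficed, and 0 to 5525 when 1 list was left out, the most without occipital replicate 2. Of 189 recomputed changes at the 15 named H3K4me2 loci, 0 changed sign and 9 passed the threshold no longer, 6 of them under the lower limit.

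With the replicate block, 5458 loci were called for H3K4me2 between E17.5 and E14.5, 448 of them gained loci that rose. The deviations of same-numbered lists correlated at -0.202 to 0.0961 for H3K27ac and -0.0727 to 0.285 for H3K4me2, and not every pair of tissues was above 0.1. The labels give no shared source for a number, so the lists were not treated as paired. The H3K4me2 values above 0.1 are a hint that some same-numbered lists deviate together. Depth limits all counts to an unknown degree, since the lists carry no reads.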
